A study of Rattus norvegicus with 6 samples.

Results

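Hepatic stellate cells are the vitamin A-storing pericytes of the liver sinusoid, and 9 of their marker and activation genes were followed here in cultured liver endothelial cells. The genes were chosen by symbol, and all 9 were found among the 32623 genes of the files: Lrat, Reln, Des, Dcn, Lum, Pdgfra, Pdgfrb, Acta2 and Tagln. Their identifiers in the files are, in that order, ENSRNOG00000025608, ENSRNOG00000021441, ENSRNOG00000019810, ENSRNOG00000004554, ENSRNOG00000004610, ENSRNOG00000002244, ENSRNOG00000018461, ENSRNOG00000058039 and ENSRNOG00000017628. RNA came from primary sinusoidal endothelium of Han Wistar rats that shared a perfused device with hepatocytes, stellate cells and macrophages. Culture lasted 48 h with flow at 1.15 dyn/cm2, and the hydrodynamic pressure was 1 mmHg (physiological, 3 libraries) or 12 mmHg (pathological, 3 libraries). No genetic change or drug was labelled in either group, and the labels used here do not say whether libraries came from separate animals or devices. P-values therefore measure only the spread between these libraries, which may be technical. The question was whether genes of quiescent and of activated stellate cells differ by pressure, and how they relate to the albumin RNA of each library.

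In healthy liver, stellate cells are quiescent and hold retinyl esters in lipid droplets. After injury they lose these stores, respond to platelet-derived growth factor, express smooth muscle actin and lay down collagen, and this activation drives liver fibrosis. Among the genes followed, Lrat and Reln are used as markers of the quiescent state, whereas Acta2 and Pdgfrb are used as markers of the activated state.

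The libraries did not form 2 groups by pressure. Alb, the albumin gene and a hepatocyte transcript, stood between 16300 and 28400 CPM (the count scaled by the TMM-adjusted total of its library) in physiological replicates 2 and 3 and pathological replicate 3. In the other 3 libraries it stood between 44.7 and 337 CPM. Those values put 3 libraries above and 3 below a divide of 1000 CPM, with both pressures on each side. Library totals ran from 8925149 to 24025406 expected counts. At least 1 count was found for 10649 genes in physiological replicate 3 and 10234 genes in pathological replicate 3, against 12833 to 17189 genes in the other libraries. Endothelial markers summed to 2030, 5300 and 4340 CPM at physiological and 971, 956 and 5620 CPM at pathological pressure, and 0 of the 11 matched genes was at 0 in any library. Lyve1 (41.3 to 2020 CPM) and Fcgr2b (52.9 to 1450 CPM) weigh heavily in this sum. Of the 11 genes, 7 were higher in every library with high Alb. Cdh5 (184 to 320 CPM) and Tie1 (198 to 395 CPM) were not, so the sum is no measure of endothelial content. These are bulk samples, so the number of stellate cells, the RNA per stellate cell and RNA of these genes from other cell types cannot be told apart.

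Pdgfrb and Acta2 were the members with lower levels in every pathological library than in any physiological one. The remaining members overlapped between pressures or were at 0. Across all members, 0 of the 8 tested passed the edgeR quasi-likelihood test at a Benjamini-Hochberg adjusted p under 0.05. Over all genes the same test called 0% of 12742, with 26 genes (0.204%) lower and 7 (0.0549%) higher at an unadjusted p under 0.05. limma-voom called 0 genes and 0 members. DESeq2 called 0 members and 45 of 14772 genes (0.305%), of which 35 (0.237%) were lower. It gave no p-value for Lrat and Tagln, so those members were not tested there. Non-overlapping groups with lower pathological values were found for 2 of the 8 tested members, against 3.05% of all genes tested, and with higher values for 0 members, against 1.56%. Fold changes were negative for 5 of the 8 tested members, with a median log2 fold change of -0.85, against 47.5% of all genes and a median of 0.05. The members were chosen with earlier results of these data known, so these shares only describe them. Pdgfrb and Acta2 also moved together, with Pearson's r of 0.983 between their log2 levels, and are not independent cases.

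**Figure D1:**
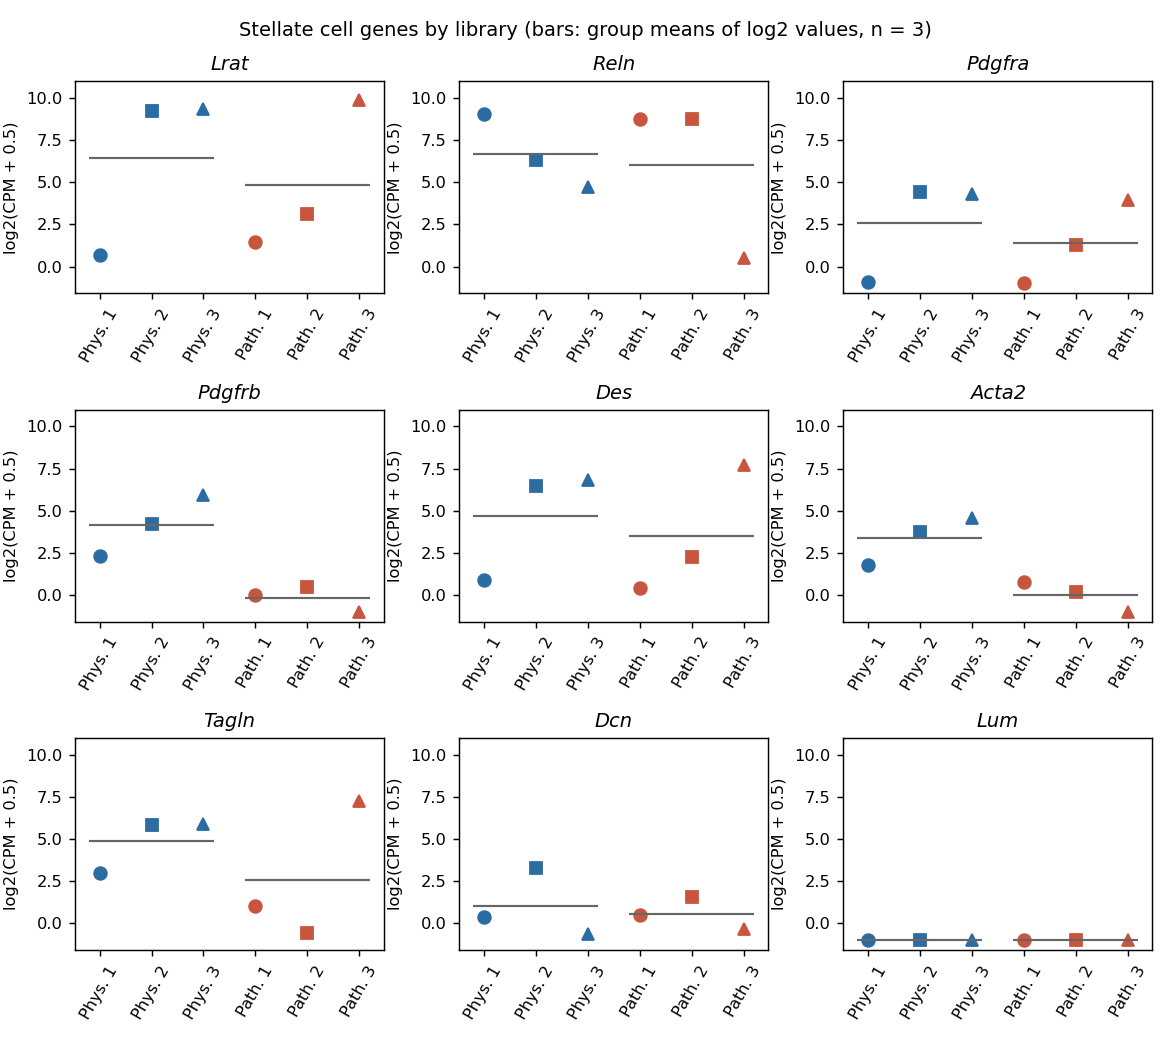
Level of each stellate cell gene in the 6 libraries as log2(CPM + 0.5); blue marks are physiological and red marks pathological libraries, marker shapes give replicate 1 (circle), 2 (square) and 3 (triangle), and bars are group means of 3. Pdgfrb and Acta2 are lower in every pathological library, whereas Lrat, Des, Pdgfra and Tagln peak in physiological replicates 2 and 3 and pathological replicate 3.

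Promoter sequences are shown first for 4 of these genes, because the results turn on how Lrat and Des part from Reln and from Acta2. RefSeq promoter entries (build GRCr8) matched 6 of the 9 members, the exceptions being Dcn, Pdgfrb and Tagln. The 250 bases before each annotated start are printed 5′ to 3′ in the direction of the gene. They lie at chr2:170571213-170571462 (minus strand) for Lrat, chr4:13628318-13628567 (plus strand) for Reln, chr9:84299376-84299625 (plus strand) for Des and chr1:241172504-241172753 (minus strand) for Acta2. Capitals mark CArG-like boxes (CC, a core of 6 bases of which at least 5 are A or T, then GG), the kind of site bound by serum response factor at muscle genes, and TATA boxes (TATANA, on either strand).
Lrat: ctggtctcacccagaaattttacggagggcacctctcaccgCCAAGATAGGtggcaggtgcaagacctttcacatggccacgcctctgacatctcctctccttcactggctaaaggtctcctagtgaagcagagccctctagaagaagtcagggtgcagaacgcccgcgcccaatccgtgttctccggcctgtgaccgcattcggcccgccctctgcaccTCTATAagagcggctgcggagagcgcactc
Reln: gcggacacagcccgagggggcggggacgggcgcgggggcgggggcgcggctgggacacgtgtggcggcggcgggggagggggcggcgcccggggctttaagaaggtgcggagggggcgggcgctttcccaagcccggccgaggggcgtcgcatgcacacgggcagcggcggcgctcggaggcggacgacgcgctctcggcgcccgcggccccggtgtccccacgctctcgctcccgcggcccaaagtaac
Des: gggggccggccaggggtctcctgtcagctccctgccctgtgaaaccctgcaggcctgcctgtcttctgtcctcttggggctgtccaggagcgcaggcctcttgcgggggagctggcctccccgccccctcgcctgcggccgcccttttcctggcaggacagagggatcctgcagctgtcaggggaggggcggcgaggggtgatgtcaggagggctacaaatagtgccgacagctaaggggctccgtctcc
Acta2: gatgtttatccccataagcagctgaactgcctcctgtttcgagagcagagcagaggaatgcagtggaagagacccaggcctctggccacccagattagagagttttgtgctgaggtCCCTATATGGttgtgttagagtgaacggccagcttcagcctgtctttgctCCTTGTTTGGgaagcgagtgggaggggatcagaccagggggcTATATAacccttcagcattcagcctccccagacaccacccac

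The Acta2 window held 2 CArG-like matches, and the Lrat window held 1. The search covered both strands and the marked motifs did not overlap. Of all 33469 RefSeq windows of the same length, 8.08% held a CArG-like match and 24.2% a TATA match. No marked motif was found in these windows of Reln and Des, which says only that these letters are not there. E-boxes (CANNTG), left in lower case, were present in all 4 windows and in 65.5% of all windows. The motif forms were chosen after the sequences were seen, and a match is a description of letters, not a bound site.

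Lrat encodes lecithin retinol acyltransferase, the enzyme that esterifies retinol for storage and a defining gene of quiescent stellate cells. It measured 1.12, 605 and 660 CPM in physiological replicates 1, 2 and 3, and 2.25, 8.24 and 923 CPM in pathological replicates 1, 2 and 3. The 3 high libraries were the 3 with high Alb, and the groups overlapped. The lowest of these 3 was 73.3-fold above the highest of the others, and for Alb itself that fold was 48.3. By pressure, Lrat averaged 422 ± 365 CPM (SD, n = 3) and 311 ± 530 CPM, and the fitted log2 fold change was -0.44 (95% interval -5.40 to 4.53, edgeR adjusted p = 1). Without pathological replicate 3 it was -6.31, and no member then had an edgeR adjusted p under 0.858.

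Reln encodes reelin, a large secreted glycoprotein best known from neuronal migration and made in liver by stellate cells. Its levels were 518, 78.9 and 25.8 CPM at physiological and 426, 435 and 0.948 CPM at pathological pressure. High and low libraries were exchanged relative to Lrat. The 3 libraries with low Alb held 426 to 518 CPM, and the lowest of them was 5.39-fold above the highest of the others. Pressure groups averaged 207 ± 270 and 287 ± 248 CPM, and the fitted log2 fold change was 0.47 (95% interval -3.32 to 4.25, edgeR adjusted p = 1). Over the 6 libraries Reln thus went against its use as a companion marker of Lrat, with Pearson's r of -0.838 between their log2 levels. The libraries fall into separate clusters by Alb, so this r describes these 6 points only, which differ in depth and composition too, and no test of it was made.

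Lrp8, a reelin receptor also called ApoER2, shared the direction of Reln against Alb, as did many genes outside this pathway. It measured 224, 54.8 and 42.3 CPM at physiological and 273, 441 and 29.3 CPM at pathological pressure, so it was likewise highest where Alb was low. Of 6 genes of the reelin pathway, Reln and Lrp8 were lower in all 3 libraries with high Alb than in all 3 with low Alb. That is 2 of 6 with Reln itself counted, near the 30.2% of all genes tested, so it is no trait of the pathway. By pressure, 0 of the 4 tested pathway genes passed the edgeR test, with 3 positive fold changes and a median of 0.34. Lrp8 gave a fitted log2 change of 1.21 (95% interval -1.22 to 3.64), and Fyn, a kinase downstream of reelin, -0.40 (95% interval -2.07 to 1.27).

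Des encodes desmin, the intermediate filament protein of muscle and a classical marker of rat stellate cells. It measured 1.32, 86.8 and 113 CPM at physiological and 0.858, 4.26 and 210 CPM at pathological pressure. The ranking was that of Lrat apart from an exchange of the lowest pair of libraries, and the groups overlapped. Desmin RNA averaged 67.1 ± 58.5 and 71.6 ± 120 CPM (SD, n = 3), and the fitted log2 fold change was 0.09 (95% interval -4.28 to 4.47, edgeR adjusted p = 1). The direction turned to -4.69 without pathological replicate 3.

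Tagln encodes transgelin, an actin-binding protein of smooth muscle that rises when stellate cells become myofibroblasts. Its levels were 7.44, 57.6 and 59.3 CPM at physiological and 1.54, 0.189 and 153 CPM at pathological pressure. Pathological replicate 3 was the highest library and the other pathological libraries were the lowest. The means were 41.4 ± 29.5 and 51.4 ± 87.6 CPM (SD, n = 3), with a log2 fold change of 0.31 (95% interval -4.08 to 4.70, edgeR adjusted p = 1). Leaving out pathological replicate 3 turned this to -5.55 (edgeR adjusted p = 0.858), in a fit where 4.94% of all genes were lower at an unadjusted p under 0.05 and 0 were called.

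Acta2 encodes alpha smooth muscle actin, the standard marker of activated stellate cells. It measured 2.93, 13.0 and 23.5 CPM in physiological replicates 1, 2 and 3, and 1.18, 0.616 and 0 CPM in pathological replicates 1, 2 and 3. The groups did not overlap, and the physiological library with low Alb was the lowest of its group. In counts, 478 reads fell on Acta2 at physiological and 46 at pathological pressure. The means were 13.1 ± 10.3 and 0.599 ± 0.59 CPM (SD, n = 3), and the log2 fold change was -4.43 (95% interval -9.73 to 0.88, edgeR adjusted p = 1).

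Pathological replicate 3 separated Acta2 from the other cytoskeletal members. In that library Tagln and Des stood at 153 and 210 CPM, the highest of all libraries for both genes, while Acta2 had 0 counts. A count of 0 allows up to 3 counts, or 0.284 CPM in that library, counting error only. The difference between Tagln and Acta2 in log2(CPM + 0.5) was 8.26 in pathological replicate 3, against -0.69 to 2.11 in the other 5 libraries. That library also had the fewest genes with a count, and the part of this in the 0 was not tested. RSEM assigns shared reads among the near-identical actin genes, so the low Acta2 values are uncertain to that extent.

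Pdgfrb encodes the platelet-derived growth factor receptor beta, through which stellate cells proliferate and migrate once activated. Its levels were 4.38, 18.1 and 61.1 CPM at physiological and 0.501, 0.9 and 0 CPM at pathological pressure. Every physiological library lay above every pathological one, and the order within the physiological group was that of Acta2. With 875 counts against 33, the means were 27.9 ± 29.6 and 0.467 ± 0.451 CPM (SD, n = 3). The log2 fold change was -5.86 (95% interval -10.73 to -0.99, edgeR adjusted p = 1), and Pdgfrb was the 1 member below an unadjusted p of 0.05. DESeq2 gave an adjusted p of 0.106 for Pdgfrb and 0.72 for Acta2.

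Libraries of like Alb gave negative fold changes for both genes. The groups of both genes did not overlap over all libraries, so this sign was fixed in advance and adds nothing. The 3 libraries above 1000 CPM of Alb hold 1 pathological library, and in them the log2 fold changes were -11.83 for Pdgfrb and -10.71 for Acta2. That fit called 1.93% of the genes it tested, with 6.63% lower at an unadjusted p under 0.05, and it assumes that the lone pathological library varies like the physiological pair. Both genes are at 0 in that lone library, so these fold changes depend on the prior count and are not bounds. The 3 libraries below 1000 CPM hold 1 physiological library and gave -2.63 and -1.68, with 0% of genes called and 0.778% lower at an unadjusted p under 0.05. A term for log2 Alb over all libraries gave -5.36 and -4.71, with unadjusted edgeR p of 0.0677 and 0.159.

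Pdgfra, the alpha receptor of the same ligand family and a marker of stellate cells and other fibroblasts, did not share the pattern of Pdgfrb. Its levels were 0.0329, 20.7 and 19.4 CPM at physiological and 0, 1.89 and 14.9 CPM at pathological pressure. Pathological replicate 3 thus lay close to physiological replicates 2 and 3, and the groups overlapped. The means were 13.4 ± 11.6 and 5.59 ± 8.1 CPM (SD, n = 3), and the fitted log2 fold change was -1.26 (95% interval -7.14 to 4.62, edgeR adjusted p = 1).

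**Figure D2:**
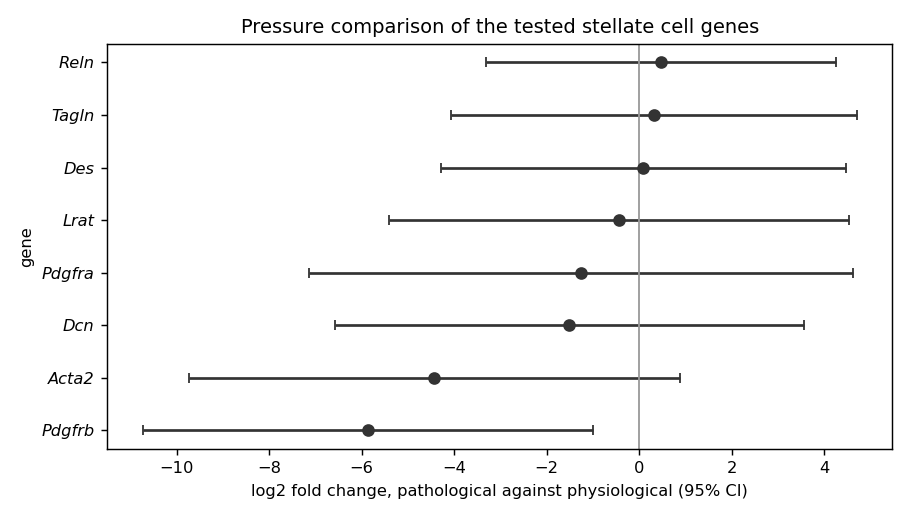
Log2 fold change of the 8 tested stellate cell genes, pathological against physiological pressure, with 95% confidence intervals derived from the F statistic of the edgeR fit (3 libraries per group). The interval of Pdgfrb lies below 0, and those of the other 7 genes cross it.

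The ligand genes Pdgfa and Pdgfb did not share the order of libraries of either receptor. Of the 7 PDGF ligands and receptors, 4 were tested, 0 were called and the median log2 fold change was -3.08, both receptors included. Pdgfa measured 19.9, 1.85 and 0 CPM at physiological and 13.2, 10.4 and 0 CPM at pathological pressure, highest in the libraries with low Alb. Pdgfb, the ligand of the beta receptor, had 320 counts in physiological replicate 1 and 34 in pathological replicate 1, and 0 in the other 4 libraries, and it did not pass the filter on low counts. Pdgfrl, a receptor-like gene, had 291 counts at physiological and 13 at pathological pressure, and its fitted log2 change was -4.90 (95% interval -12.07 to 2.28).

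Dcn and Lum encode decorin and lumican, small leucine-rich proteoglycans that bind collagen fibrils and mark fibroblasts. Dcn measured 0.79, 9.31 and 0.143 CPM at physiological and 0.894, 2.42 and 0.284 CPM at pathological pressure. The highest library was physiological replicate 2, the groups overlapped, and the order did not follow Alb. Decorin averaged 3.42 ± 5.12 and 1.2 ± 1.1 CPM (SD, n = 3), with a log2 fold change of -1.51 (95% interval -6.57 to 3.56, edgeR adjusted p = 1), which turned to 1.32 without physiological replicate 2. Lum had 0 counts in all 6 libraries, where 3 counts would correspond to 0.0987 to 0.428 CPM.

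Of the 12 genes of this proteoglycan family, 3 were at 0 everywhere and 4 passed the filter, with 4 negative fold changes, 0 calls and a median of -0.35. Bgn, encoding biglycan, stood at 25.2, 379 and 443 CPM at physiological and 18.7, 13.3 and 636 CPM at pathological pressure. Bgn, Prelp and Podn, 3 of the 12, were higher in all 3 libraries with high Alb than in the others, against 18.3% of all genes tested.

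Against Alb, the 9 members took 3 patterns. Lrat, Des, Pdgfra and Tagln were higher in every library with high Alb than in every library with low Alb, 4 of 9 members against 18.3% of all genes tested. Reln ran the other way, 1 of 9 members against 30.2% of genes. Pdgfrb, Acta2 and Dcn were mixed and Lum was at 0. The Pearson r of log2 levels with Alb over the 6 libraries was 0.997 for Lrat, 0.982 for Des, 0.977 for Pdgfra, 0.822 for Tagln, 0.330 for Pdgfrb, 0.287 for Acta2 and -0.825 for Reln. As the libraries are clustered by Alb, these values are descriptions and the relations cannot be tested.

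**Figure D3:**
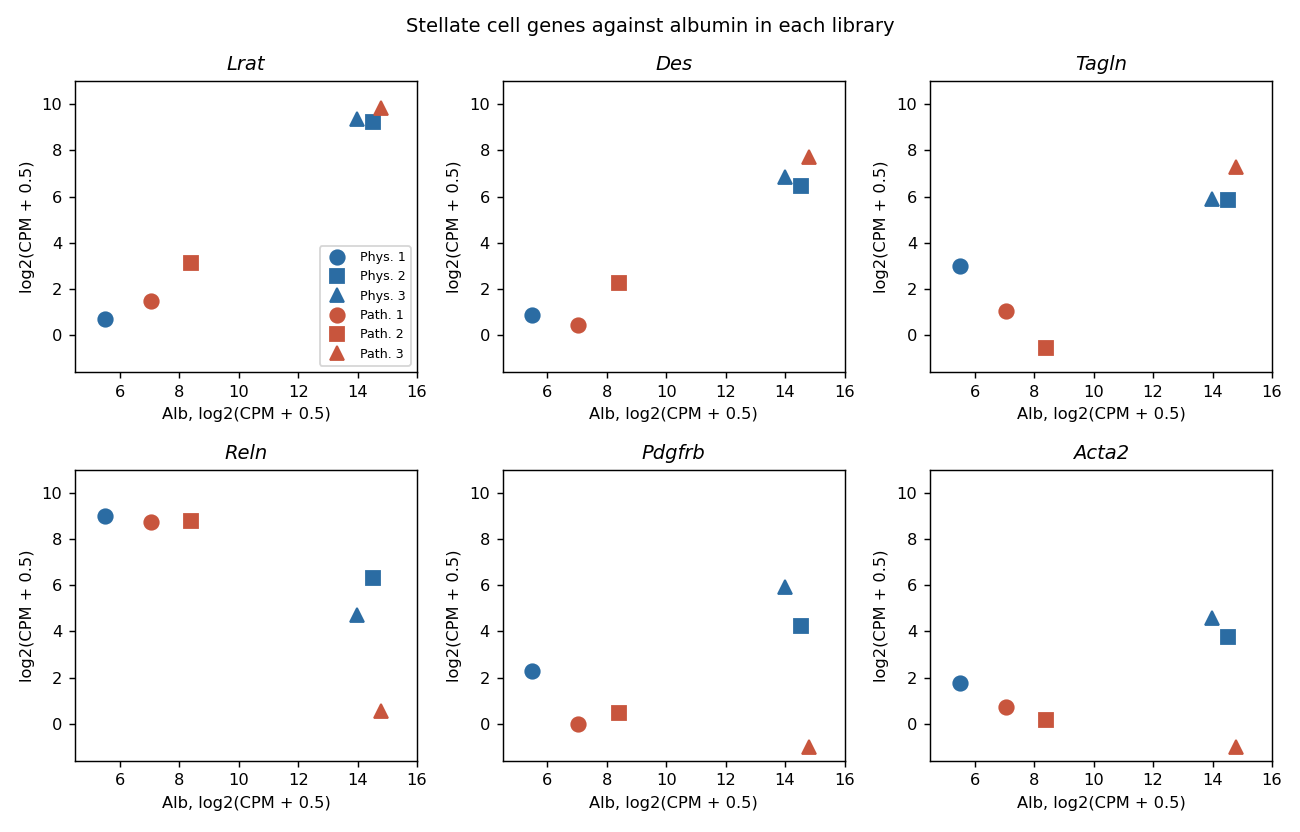
Levels of 6 stellate cell genes against Alb in each library, both as log2(CPM + 0.5); blue marks are physiological and red marks pathological libraries, with shapes for the replicate as in the legend. Lrat, Des and Tagln are high in the 3 libraries with Alb above 1000 CPM, Reln is low in them, and Pdgfrb and Acta2 are at 0 in pathological replicate 3 despite its Alb level.

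Quiescence markers were set against activation markers in each library as the mean log2(CPM + 0.5) of Lrat and Reln minus that of Acta2 and Pdgfrb. This difference was 2.82, 3.79 and 1.78 in physiological replicates 1, 2 and 3, and 4.72, 5.63 and 6.19 in pathological replicates 1, 2 and 3. The groups did not overlap, with means of 2.80 ± 1.01 and 5.51 ± 0.74 (SD, n = 3), or 2.72 higher at pathological pressure on the log2 scale. It is a score over members, so no test was made. Acta2 and Pdgfrb did not overlap by themselves either, whereas Lrat and Reln did, and Lrat minus Reln ran from -8.32 to 9.32 over the libraries. A higher difference is thus not a higher level of the quiescence markers. Fitted log2 fold changes were -0.44 for Lrat and 0.47 for Reln, against -4.43 for Acta2 and -5.86 for Pdgfrb. In pathological replicate 3 Acta2 and Pdgfrb were at 0, so their part of the difference there is the pseudocount alone.

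Single pairs overlapped between the pressures. Lrat minus Acta2 was -1.08, 5.49 and 4.78 in the physiological and 0.71, 2.97 and 10.85 in the pathological libraries. Reln minus Pdgfrb was 6.73, 2.09 and -1.23 against 8.73, 8.28 and 1.53. Lrat minus Acta2 and Lrat minus Pdgfrb were lowest in physiological replicate 1, which had the lowest Alb, and highest in pathological replicate 3, which had the highest. Reln minus Acta2 and Reln minus Pdgfrb were instead highest in pathological replicates 2 and 1.

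**Figure D4:**
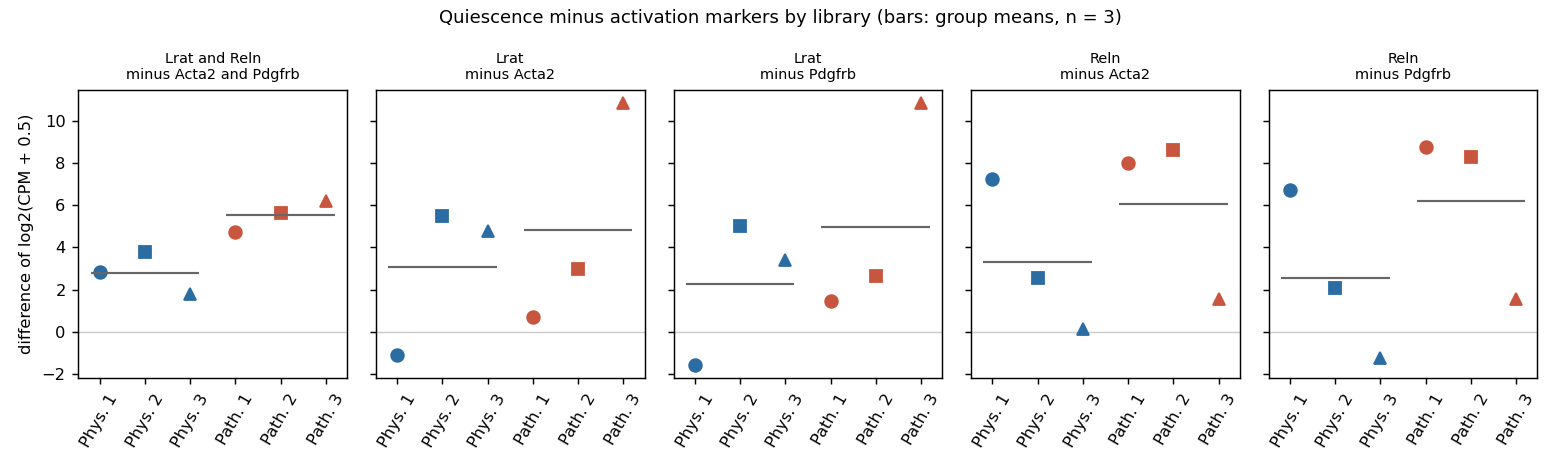
Difference of log2(CPM + 0.5) between quiescence and activation markers in each library, as the mean of 2 against 2 genes (left) and for the 4 single pairs; blue marks are physiological, red marks pathological libraries and bars are means of 3. The mean difference is 1.78 to 3.79 in physiological and 4.72 to 6.19 in pathological libraries, whereas each single pair overlaps.

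A further list of genes of quiescent stellate cells followed Lrat. Of 21 matched genes, 14 were higher in all 3 libraries with high Alb than in the others and 0 were lower, against 18.3% and 30.2% of all genes tested. The pattern was not confined to that list: 7 of 11 endothelial, 6 of 12 macrophage and 8 of 28 further activation genes were also higher in those libraries, Kdr, C1qa and Col1a1 among them. The list summed to 58.4, 2260 and 2760 CPM at physiological and 54.9, 116 and 4410 CPM at pathological pressure. Gfap, the glial filament protein also found in quiescent stellate cells, stood at 0.263, 60.2 and 54.7 CPM at physiological and at 0, 0.0947 and 150 CPM at pathological pressure. By pressure, 11 of 16 tested genes were negative, 0 were called and the median was -0.43. Hand2, a stellate transcription factor gene, was among those of smallest p in this list, and its fitted log2 change was -2.23 (95% interval -7.27 to 2.81).

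Of 22 retinoid genes, Lrat included, 8 were higher in all 3 libraries with high Alb than in the others, Rarb (a retinoic acid receptor) and Rbp4 (the plasma retinol carrier, made by hepatocytes) among them, and Crabp2 was lower, against 18.3% and 30.2% of all genes tested. By pressure 14 of 18 tested genes were negative and 0 were called, with a median of -0.49. Cyp26b1, which degrades retinoic acid, averaged 4.25 ± 4.75 and 0.987 ± 0.856 CPM (SD, n = 3), and Dgat2, an acyltransferase of lipid storage, 63.7 ± 53.8 and 45.7 ± 25.4 CPM.

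Few other activation and myofibroblast genes had the non-overlapping groups of Acta2 and Pdgfrb. Of 28 matched genes, 24 were tested, 19 were negative, 0 were called and the median was -0.53. Col5a2, a fibrillar collagen chain, and Loxl2, a collagen crosslinking enzyme, were lower in every pathological than in any physiological library, 2 of 24 against 3.05% of all genes. Col5a2 measured 36.4, 25.3 and 32.5 CPM at physiological and 21.2, 3.08 and 20.1 CPM at pathological pressure. Loxl2 measured 10.3, 17.3 and 46.5 CPM and 7.29, 1.66 and 0 CPM. Col6a3 had 268 counts against 20, with 211 of the 268 in physiological replicate 2. Postn, a marker of fibrogenic myofibroblasts, was at 0 counts in every library.

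Among 20 contractile and filament genes, 15 were tested, 10 were positive, 0 were called and the median was 0.33, against -4.43 for Acta2. Myl9, a myosin light chain, followed Lrat at 1.84, 361 and 468 CPM at physiological and 3.29, 6.3 and 563 CPM at pathological pressure. Actb, the cytoplasmic actin gene, averaged 1700 ± 450 and 2430 ± 1020 CPM (SD, n = 3), and the fitted log2 fold change was 0.51 (95% interval -0.97 to 1.99).

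**Figure D5:**
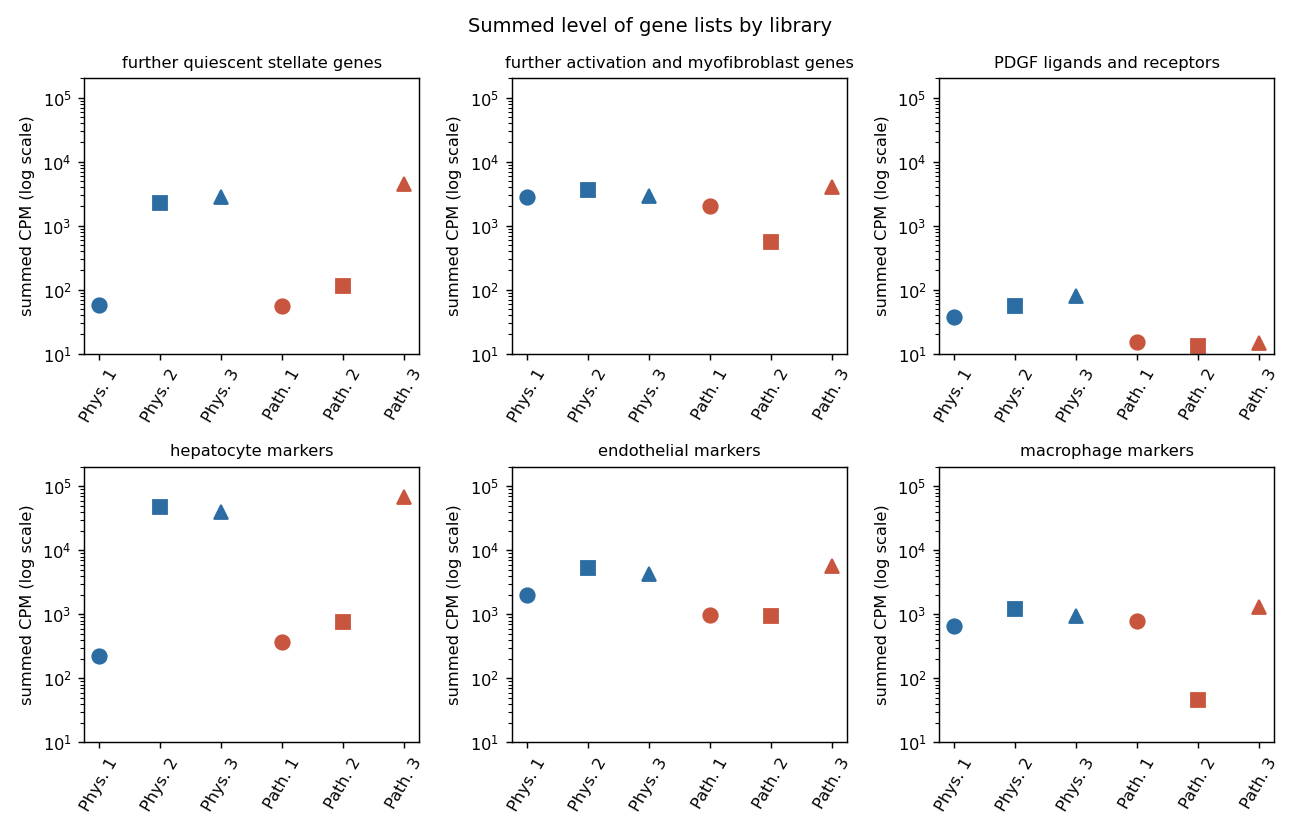
Summed CPM of 6 gene lists in each library on a log scale; blue marks are physiological and red marks pathological libraries. The quiescent stellate and hepatocyte lists are both high in physiological replicates 2 and 3 and pathological replicate 3, and the macrophage list drops to 46.2 CPM in pathological replicate 2. The PDGF list is 37.9 to 80.5 CPM in physiological and 13.2 to 15.5 CPM in pathological libraries, but different genes make up these sums. Pdgfa was the largest part in physiological replicate 1 (19.9 CPM) and Pdgfrb in physiological replicate 3 (61.1 CPM). Among the tested genes of that list, Pdgfrb alone had groups that did not overlap.

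Markers of other cell types moved with some of these genes, and their part in the results was not tested. Hepatocyte markers, 15 of 15 detected in every library, summed to 228, 46900 and 40200 CPM at physiological and 366, 761 and 68400 CPM at pathological pressure, in step with Lrat, Des, Pdgfra and Tagln. Smooth muscle and pericyte markers summed to 76.0, 337 and 239 CPM and to 49.3, 126 and 537 CPM, with 3 to 7 of 11 genes at 0 per library. Portal fibroblast and mesothelial markers summed to 9.41, 143 and 157 CPM and to 14.8, 14.7 and 169 CPM, with up to 8 of 13 genes at 0. Macrophage markers summed to 46.2 CPM in pathological replicate 2 and to 660 to 1320 CPM in the others. Cholangiocyte markers summed to 2.9, 65.3 and 38.2 CPM and to 3.04, 3.17 and 19.9 CPM. Among the tested genes of these 5 lists, 0 were called, 0 had groups that did not overlap and 0 had an unadjusted edgeR p under 0.05. Over all genes tested, groups did not overlap for 3.05% (lower) and 1.56% (higher). An unadjusted edgeR p under 0.05 was found for 0.204% (lower) and 0.0549% (higher). At such shares, lists this short would hold few of these genes, so their absence says little. Lmod1, a smooth muscle gene that did not pass the filter on low counts and was picked out after its values were seen, had 0 CPM in the 3 physiological libraries and 0.143, 2.27 and 0.0948 CPM in the pathological ones.

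The smallest p-values within these lists and the endothelial list belonged to genes whose groups overlapped. Among hepatocyte genes they were Tat, a tyrosine aminotransferase, at -1.56 (95% interval -6.28 to 3.16), and Fga, a fibrinogen chain, at -1.08 (95% interval -5.67 to 3.52), both as log2 fold changes. Krt19, a biliary keratin with 771 counts against 28, and Sox9, a biliary transcription factor, stood at -5.45 (95% interval -11.39 to 0.49) and -3.97 (95% interval -9.75 to 1.81). For the mural genes Mcam and Smtn the values were -1.59 (95% interval -6.46 to 3.29) and 0.33 (95% interval -1.83 to 2.48), with Mcam at 0 in pathological replicate 2. Fbln1, a fibulin of portal fibroblasts, had 168 counts against 12, and Pi16 16 against 111. The macrophage genes Adgre1 and C1qa were at -1.56 (95% interval -6.22 to 3.11) and -0.81 (95% interval -3.71 to 2.09). Eng and Tek, endothelial receptors of TGF-beta family ligands and of angiopoietins, were at -0.63 (95% interval -2.44 to 1.19) and -0.64 (95% interval -2.48 to 1.2).

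Genes most like a member were ranked by Pearson's r of log2(CPM + 0.5) over the 6 libraries among genes with a mean log2 CPM of at least 1. For Lrat these were LOC103691744 (r = 0.9998), Bhmt (0.9995), an enzyme of homocysteine metabolism in hepatocytes, and C9 (0.9993), a complement component of plasma. Bhmt stood at 1.81, 951 and 1220 CPM at physiological and 3.97, 12.7 and 1990 CPM at pathological pressure. For Reln they were Upf1 (0.9974), Tmbim1 (0.9967) and Trip11 (0.9964), with Upf1, an RNA decay helicase gene, at 167, 56.8 and 25.7 CPM and at 175, 212 and 2.94 CPM. For Acta2 they were Sv2a (0.9946), Sra1 (0.9945) and RGD1561113 (0.9922). For Pdgfrb they were Patz1 (0.9909), LOC108348173 (0.9906) and Samsn1 (0.9899). With 6 points dominated by a division of libraries, r over 0.95 was reached by 707 of 11500 genes for Lrat, 419 for Reln, 76 for Acta2 and 47 for Pdgfrb.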

How the data were processed

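RNA of 6 libraries was sequenced as single-end reads from polyA RNA, per the labels' protocols. The values deposited by the authors are expected counts of genes, per the file headers, in a file for each library. The submitters' processing notes list STAR, RSEM and limma without versions. Genome build and strand use were not given in the sources used here. Between 4.33% and 10.4% of values per library were not whole. Counts were rounded and compared with edgeR 4.0.16 in R 4.3.3 (TMM, filterByExpr, quasi-likelihood F-test, two-sided, no covariate), which tested 12742 of 32623 genes. P-values were adjusted over all tested genes at 0.05. CPM uses TMM-scaled totals. Floors of 3 counts cover counting error only. The biological coefficient of variation was 1.39. The chi-square per degree of freedom between any pair of libraries was 81.9 to 1150, so none agreed within sampling noise. The lowest value was that of physiological replicate 1 with pathological replicate 1, and the highest that of pathological replicates 2 and 3. The unpaired fit takes no account of such likeness across pressures. Levels were not compared between genes, as transcript lengths were not used.

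Members and the 14 gene lists were chosen with earlier results of these data known. Of the list symbols, 166 matched by symbol, 2 by synonym, 1 by the first of several identifiers and 4 were unmatched. Named were the members, Alb, the 2 genes of smallest p per list and the 3 genes most like Lrat, Reln, Acta2 and Pdgfrb. Some genes that this rule names are not reported here. Other names were chosen after their values were seen. Alternatives were other scaling and filters, DESeq2 1.42.0, limma-voom 3.58.1, libraries divided by Alb, an Alb term and leaving out each library. The test was also run on simulated counts, with less spread between libraries than here and no division by Alb. That run checks the code and says nothing of performance on these data.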

Additional observations from a re-analysis of the deposited data

How the results depend on the processing

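Over 17 alternatives, Acta2 kept a negative fold change in all of them and an adjusted p above 0.05, and Pdgfrb kept a negative fold change and was called in 1. The groups of Acta2 and Pdgfrb did not overlap, so dividing or leaving out libraries could not turn their sign. The signs of Lrat, Reln, Des, Dcn, Pdgfra and Tagln depended on the libraries used. Genes called went from 0 to 45 with DESeq2 and to 244 with only the libraries above 1000 CPM of Alb, where 1 member was called, Pdgfrb (log2 fold change -11.83). That subset also turned Lrat to 0.56 and Reln to -5.77. With only the libraries below 1000 CPM, Lrat was 2.22, Reln -0.26, Dcn 1.06, Pdgfra 4.64 and Tagln -3.06. An Alb term gave -0.95 for Reln, -0.26 for Des, 0.79 for Pdgfra and -1.29 for Tagln. limma-voom gave -0.30 for Reln, -0.91 for Des and -2.71 for Tagln. Without 1 library in turn, 0 genes and 0 members were called, and log2 fold changes ran from -6.31 to 0.14 for Lrat, -0.06 to 2.56 for Reln, -4.69 to 0.69 for Des, -2.51 to 1.32 for Dcn, -3.79 to -0.68 for Pdgfra, -6.68 to -4.55 for Pdgfrb, -5.34 to -3.69 for Acta2 and -5.55 to 0.89 for Tagln. The sign turned for Des and Tagln without physiological replicate 1 or pathological replicate 3, for Dcn without physiological replicate 2, for Lrat and Reln without physiological replicate 3, and for Lrat without pathological replicate 1 or 2. The median of all genes moved from 0.05 to -0.58 above and -0.10 below the Alb divide, to -0.18 with the Alb term and to 0.30 without physiological replicate 1. The quiescent minus activated difference of 2.72 stayed positive in 15 alternatives. Leaving out 1 library could not turn its sign, as its groups did not overlap either. It was 3.74 with a pseudocount of 0.1, 4.25 for summed CPM, 1.78 for Lrat against Acta2 and 3.65 for Reln against Pdgfrb, and ran from 2.21 to 3.21 without 1 library. The cause of these shifts was not tested. With 3 libraries per group, a member's log2 fold change had a standard error of 1.64 to 2.55, which limits what could be detected. No paired analysis was made because the labels give the groups no shared replicate numbers, and the replicate numbers used here only name libraries. For replicates 1, 2 and 3 the labelled sample numbers are 2, 11 and 22 at physiological and 3, 9 and 23 at pathological pressure. Whether neighbouring numbers mark a pair or a shared run is not stated and was not tested.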
